A study of Mus musculus with 7 samples.

Results

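The HoxD cluster is a row of Hox genes on mouse chromosome 2, flanked on either side by long stretches with few genes that act as its regulatory domains. Its occupancy was described here from the peaks whose midpoint lay between 73.6 and 75.7 Mb of chromosome 2 in build mm9, a window of 2.1 Mb. The window was split into a centromeric segment below 74.49 Mb, the cluster segment of 120 kb and a telomeric segment above 74.61 Mb. The outer segments are called deserts here by position alone, and the genes in them were not counted. The window held 169 of the 82921 peaks of 3 deposited lists. These were 84 of 33915 Shox2 limb peaks, 31 of 15091 Shox2 palate peaks and 54 of 33915 Pbx limb peaks. A further list, of Shox2 and Pbx co-occupancy, had 22 of its 8999 entries in the window. Each of the 22 was identical to a Shox2 limb peak that overlapped a Pbx limb peak, so it is no further measurement.

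The lists come from chromatin immunoprecipitation with sequencing (ChIP-seq) of freshly dissected mouse embryo tissue at E12.5, the embryonic day. Shox2 was precipitated through an HA tag, from animals labelled Shox2-HA, in limb and in palate, and Pbx with an anti-Pbx antibody in limb. The series has 7 libraries, 1 per group, of which 4 (Shox2 limb at E13.5, a Shox2 limb and palate mix, the nontagged control and the input) were not used here. The labels do not give the number of embryos, which limbs or limb segments were taken, or which Pbx protein was meant, and peak lists hold no expression values with which limb or palate tissue could be checked. A peak is a chromosome, a start and an end, with no height or score, so depth is unknown and no difference between lists below has a replicate check or a test. Intervals are exact 95% Clopper-Pearson intervals that treat peaks as independent and cover counting error only.

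As background, the Hoxd genes encode homeodomain transcription factors that are activated in the order in which they stand on the chromosome. In the mouse limb, enhancers in the telomeric domain act on the genes of the middle of the cluster in the upper and lower arm, and enhancers in the centromeric domain act later on Hoxd13 and its neighbours in the digits. Shox2 is a homeodomain factor needed for the upper limb skeleton and for palate growth, and Pbx proteins are homeodomain factors of the TALE class that bind DNA together with Hox proteins among others. In the RefSeq order of GRCm38.p6, Hoxd13 and Hoxd12, which act in the distal limb and digits, stand at the centromeric end and are followed by Hoxd11, a gene of forearm and lower leg patterning. Hoxd10 and Hoxd9, which act in the limbs and in spinal motor neurons, come next, then Hoxd8. Hoxd3 and Hoxd4, which pattern the neck vertebrae and hindbrain, and Hoxd1, which acts in sensory neurons in the mouse, stand at the telomeric end. The microRNA gene Mir10b lies next to Hoxd4 in that order. The nearest listed genes on the centromeric side are Gm31790, Evx2, a homeobox gene of the distal limb, Gm22975, Gm39852 and Mrpl23-ps1, and on the telomeric side Mtx2, a mitochondrial import gene, Gm14425, Gm14427, Gm46748 and Gm13652. The peaks are in mm9 and the gene table is in GRCm38.p6, so no peak is assigned to a gene here.

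RefSeq promoters, from 250 bases before to 50 after a start site, matched all 9 Hoxd genes in 10 sequences. They were searched on both strands for motifs of the kinds of factor profiled. TGATTNAT, the joint site of Pbx with Hox, was in 1 of the 10 sequences and in 3.22% of all 32851 promoters of the same table. TAATTA, a homeodomain core, was in 2 of the 10 and in 5.29% of all promoters. TGATTGAC, the site of Pbx with Meis or Prep, was in 0 of the 10 and in 0.77% of all promoters. The paired-class homeodomain palindromes with a spacer of 2 or 3 bases were in 0 of the 10, and in 0.39% and 0.487% of all promoters. All matches lay at the start sites of Hoxd11, which are shown because they are the Hoxd promoters that carry letters of the kind that either factor binds. TAATTA reads the same on both strands, and the TGATTNAT match is on the minus strand, so it is printed as ATCAATCA. Both sequences are from the plus strand, with the matches in capitals, and no 2 matches overlap. The first lies at chr2:74679308-74679607 and the second at chr2:74682073-74682372, both in GRCm38.p6, and neither position can be set against the mm9 positions below.
Hoxd11, first start site: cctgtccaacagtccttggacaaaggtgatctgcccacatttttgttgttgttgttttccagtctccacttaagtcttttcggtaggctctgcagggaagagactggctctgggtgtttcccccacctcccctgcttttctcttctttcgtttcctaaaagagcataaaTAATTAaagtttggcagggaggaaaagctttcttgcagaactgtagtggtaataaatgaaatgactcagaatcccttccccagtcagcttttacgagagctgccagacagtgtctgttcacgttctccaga
Hoxd11, second start site: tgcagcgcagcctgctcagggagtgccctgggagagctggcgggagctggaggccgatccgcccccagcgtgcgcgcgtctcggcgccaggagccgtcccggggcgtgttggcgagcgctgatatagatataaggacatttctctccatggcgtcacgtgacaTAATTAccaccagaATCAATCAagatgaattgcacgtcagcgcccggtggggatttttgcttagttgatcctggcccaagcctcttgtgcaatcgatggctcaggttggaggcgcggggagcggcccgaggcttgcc
In the second sequence TAATTA spans bases 164 to 169 and ATCAATCA bases 178 to 185, counted from 1 at the 5′ end, and they begin 87 and 73 bases before the start site. In the first, TAATTA begins 81 bases before the start site. Whether a peak of any list lies on either start site was not determined.

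Shox2 limb peaks lay in both deserts, and none was listed in the cluster segment. The centromeric desert held 38 peaks in 0.89 Mb, a density of 42.7 per Mb, and the telomeric desert held 46 in 1.09 Mb, or 42.2 per Mb. Both densities were above the 13.1 per Mb of the rest of chromosome 2 and the 13.2 per Mb of the rest of chromosomes 1 to 19 and X, with 3.24-fold (centromeric) and 3.2-fold (telomeric) the density over the rest of the chromosomes. In the 120 kb of the cluster segment 0 Shox2 limb peaks were listed, and a count of 0 allows up to 3 peaks, or 25 per Mb, as a one-sided limit for counting error only. Stretches of this length without a Shox2 limb peak were common, at 41.4% of the 21384 tiles of 120 kb laid over the chromosomes. The stretch with no Shox2 limb peak ran past the cluster segment on either side, from 74.39 to 74.62 Mb, and at 233 kb it was the longest in the window for this list. It began 103 kb before the cluster segment and ended 9.45 kb after it, and it held 4 Pbx limb peaks and 2 Shox2 palate peaks. The deserts had stretches nearly as long without a Shox2 limb peak. These were 215 kb at the centromeric edge of the window, up to 73.82 Mb, and 214 kb from 75.38 to 75.6 Mb.

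**Figure D1:**
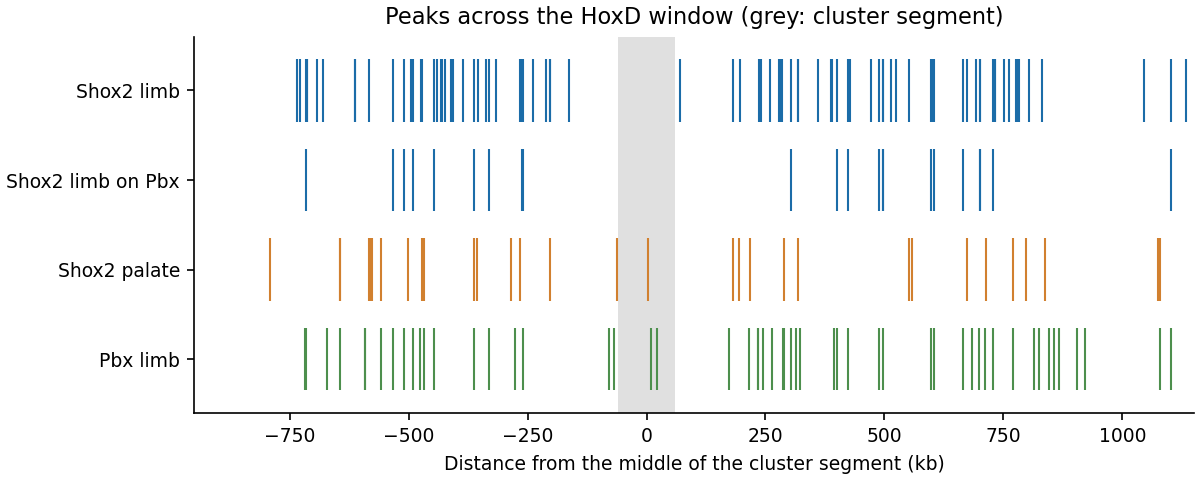
Position of every peak of the HoxD window, in kb from the middle of the cluster segment, with centromeric positions on the left. Each tick is a peak of the Shox2 limb list, of its part on Pbx, of the Shox2 palate list or of the Pbx limb list, and the grey band is the cluster segment, which holds 0 Shox2 limb, 1 Shox2 palate and 2 Pbx limb peaks.

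The cluster segment itself held 2 Pbx limb peaks and 1 Shox2 palate peak. The larger Pbx peak, at chr2:74570379-74574070, was 3692 bp wide, against a median of 938 bp over the window and 897 bp over the rest of the Pbx list. Its place in the Pbx file was line 4134 of 33915, or 12.2% of the way down; the sources do not say that file order is a ranking. The other, at chr2:74559670-74560470, was 801 bp wide and stood at line 19070, 56.2% of the way down. The palate peak was the position 74553962, at line 7105 of 15091. None of the 3 overlapped a peak of another list. With 0 Shox2 limb peaks listed in the segment, an overlap with that list was not possible there. Over the whole lists 6.62% of Pbx limb peaks held a palate position and 15.6% of palate peaks lay in Pbx. The lack of overlap among 3 peaks is therefore no result. Tiles of 120 kb with at least 2 Pbx limb peaks made up 36.8% of the genome's tiles and those with at least 1 Shox2 palate peak 39.1%, so these counts were near the background. The nearest Pbx limb peaks outside the segment were centred 8.64 kb away on the centromeric side and 113 kb away on the telomeric side. The nearest Shox2 palate peaks were 2.89 kb away on the centromeric side and 123 kb away on the telomeric side. For Shox2 in limb the sides were the other way round, with 103 kb on the centromeric and 9.56 kb on the telomeric side.

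Over the whole window, all 3 lists were denser than in the rest of the genome. The 84 Shox2 limb peaks gave 40 per Mb, which was 3.03-fold the density over the rest of the chromosomes. The 31 Shox2 palate peaks gave 14.8 per Mb, against 6.65 on the rest of chromosome 2 and 5.87 on the rest of the chromosomes, a 2.51-fold difference. The 54 Pbx limb peaks gave 25.7 per Mb, against 15.6 and 13.2, or 1.95-fold over the rest of the chromosomes. Set beside 1212 tiles of the window's length, the 84 Shox2 limb peaks stood against a median of 24 and quartiles of 12 and 38.2 per tile. As many or more were found in 14 tiles (1.16%). For Shox2 in palate the median tile had 11 peaks, and 71 tiles (5.86%) had 31 or more. For Pbx the median tile had 23 peaks, and 143 tiles (11.8%) had 54 or more. The window was chosen with earlier results known, so these shares describe its place and are no test.

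Pbx limb peaks were denser in the telomeric desert and Shox2 palate peaks in the centromeric desert, and neither difference was tested. Pbx limb peaks lay at 30.3 per Mb in the telomeric desert (33 peaks) and at 21.3 per Mb in the centromeric desert (19 peaks). Shox2 palate peaks lay at 12.8 per Mb in the telomeric desert (14 peaks) and at 18 per Mb in the centromeric desert (16 peaks). Shox2 limb density was nearly the same on both sides, as given above. The telomeric desert thus held 61.1% of the window's Pbx limb peaks, 54.8% of its Shox2 limb peaks and 45.2% of its Shox2 palate peaks.

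**Figure D2:**
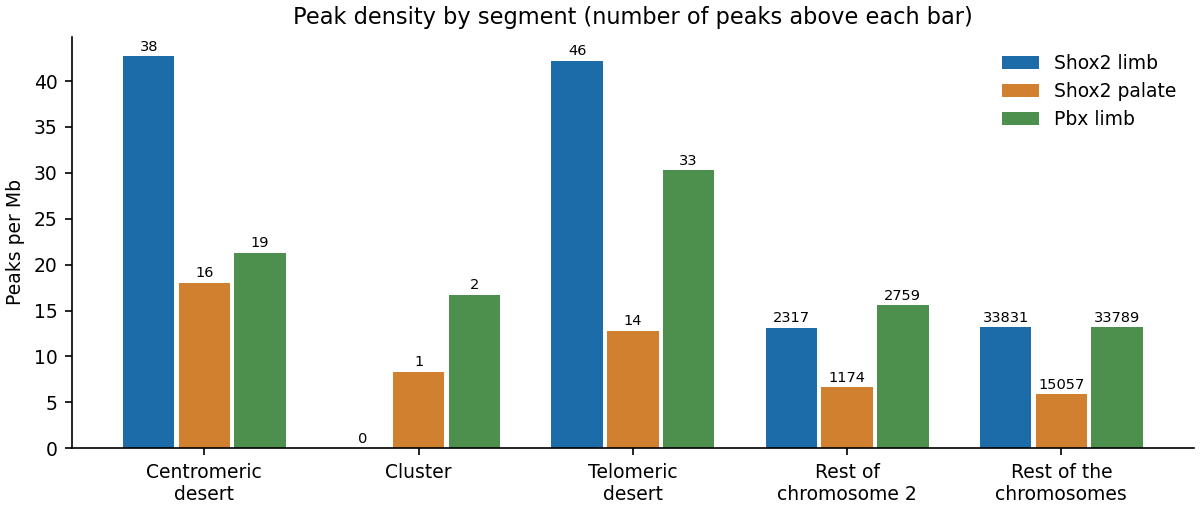
Peaks per Mb in the 3 segments of the HoxD window and in the rest of chromosome 2 and of chromosomes 1 to 19 and X, for each list, with the number of peaks above each bar. Shox2 limb stands at 42.7 and 42.2 per Mb in the deserts and at 0 in the cluster segment, against 13.2 per Mb over the rest of the chromosomes.

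Across the window, peaks were unevenly spread. In bins of 100 kb, Shox2 limb peaks had a median of 4 and 5 of the 21 bins were empty. The empty bins included those starting at 74.4 and 74.5 Mb, which reach into the cluster segment. The fullest bin, from 74.1 to 74.2 Mb, held 11 Shox2 limb peaks, and 2 of them overlapped Pbx. The next, from 75.2 to 75.3 Mb, held 8, of which 4 overlapped Pbx. Bins starting at 73.8, 74.8 and 75.3 Mb held 7 each, with 1, 1 and 0 on Pbx. Over the whole list 26.5% of Shox2 limb peaks overlapped Pbx, and these small counts are not read as a difference between bins.

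Pbx limb peaks were most frequent from 74.8 to 74.9 Mb, with 6, and then in the bins starting at 74, 74.7 and 75.2 Mb, with 5 each. Shox2 palate peaks were most frequent from 73.9 to 74 Mb, with 6, in a bin that held 3 Shox2 limb peaks and 4 Pbx limb peaks. The bins starting at 74, 74.7 and 75.3 Mb held 3 palate peaks each. The longest stretch without a Shox2 palate peak ran for 237 kb, from 75.39 to 75.62 Mb. Nearly as long was a stretch of 235 kb from 74.87 to 75.1 Mb, where the Shox2 limb list had 6 peaks in each of the bins starting at 74.9 and 75 Mb. The longest stretch without a Pbx limb peak was the centromeric edge of the window, 233 kb up to 73.83 Mb, where the Shox2 limb list also started late, at 73.82 Mb.

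**Figure D3:**
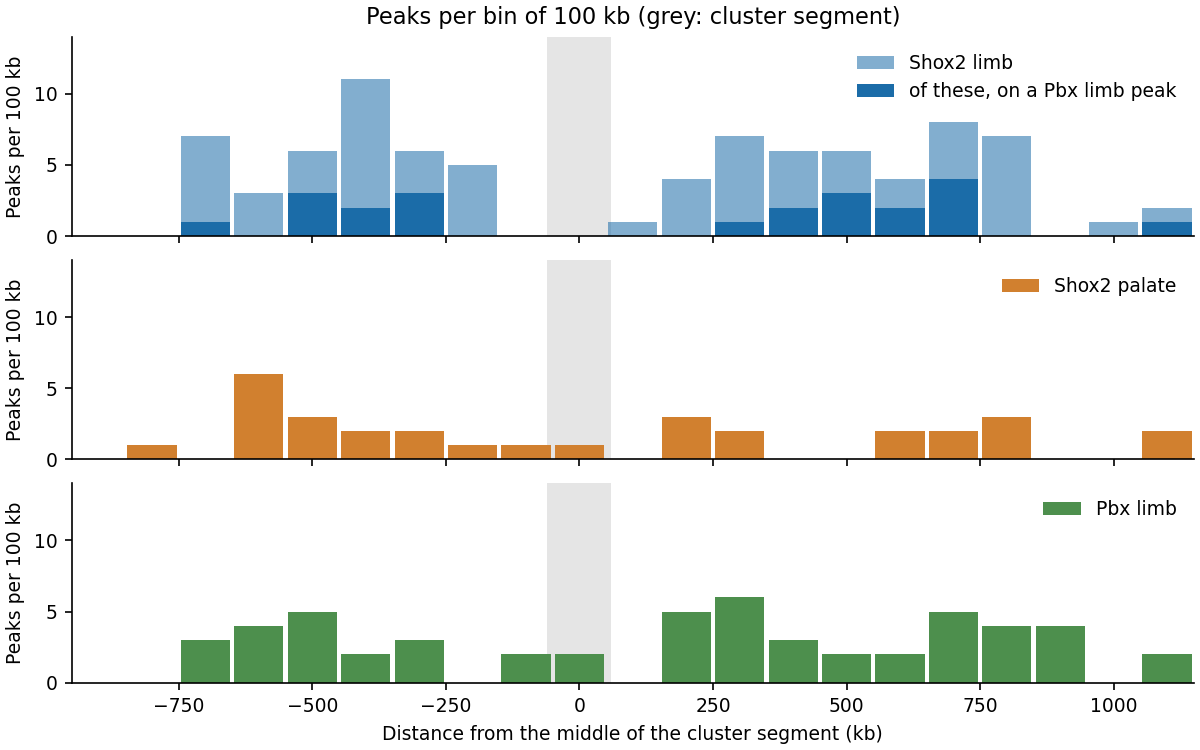
Number of peaks in each bin of 100 kb of the HoxD window for the Shox2 limb, Shox2 palate and Pbx limb lists, by distance in kb from the middle of the cluster segment (grey). The dark part of the Shox2 limb bars counts peaks that overlap a Pbx limb peak. The fullest Shox2 limb bin has 11 peaks, of which 2 are on Pbx, beside 26.5% of the whole Shox2 limb list.

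The share of Shox2 limb peaks on Pbx in the window was at the background. Of the 84 Shox2 limb peaks, 22 (26.2%, interval 17.2 to 36.9%) overlapped a Pbx limb peak by at least 1 bp, beside 26.5% of the whole list and 26.2% of the rest of chromosome 2. The share was 28.3% (13 of 46, interval 16 to 43.5%) in the telomeric desert and 23.7% (9 of 38, interval 11.4 to 40.2%) in the centromeric desert, and the intervals overlap widely. The order of the deserts turned round under some settings and not under others. The shares were 10.9% telomeric and 18.4% centromeric with every peak set to 200 bp. With each list cut to its upper 50% in file order they were 20.8% and 29.4%. The order was kept with the widest 50% of each limb list (25.9% and 17.9%). It was also kept with an overlap of 50% of the shorter peak (28.3% and 23.7%) and with moved cluster bounds (28.9% and 23.7%). No order of the deserts in this share is therefore drawn. Seen from Pbx, 19 of 54 peaks (35.2%, interval 22.7 to 49.4%) overlapped a Shox2 limb peak, beside 23.4% of the whole Pbx list. That interval includes the share of the whole list but not the 19.2% of the rest of chromosome 2. The 2 Pbx peaks of the cluster segment could not be among the 19, as no Shox2 limb peak was listed there.

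With no Shox2 limb peak listed in the cluster segment, co-occupied sites could lie only on either side of it. The 9 centromeric sites ran from 73.84 to 74.29 Mb. The telomeric sites began at 74.85 Mb, and 12 of the 13 lay below 75.28 Mb. The longest stretch between co-occupied sites was the 563 kb around the cluster, with 14 Shox2 limb and 12 Pbx limb peaks. The second, of 375 kb from 75.28 to 75.65 Mb, had 10 Shox2 limb and 9 Pbx limb peaks. Both were picked for holding 0 co-occupied sites, so that 0 is set by the choice and is no result. Over the whole lists, 26.5% of Shox2 limb peaks overlapped Pbx and 23.4% of Pbx limb peaks overlapped Shox2 limb.

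The Shox2 and Pbx peaks of the 22 shared sites were closely centred. The distance between centres had a median of 144 bp (quartiles 26.4 and 350 bp), against 142 bp (63.5 and 289 bp) at the co-occupied sites of the rest of the series. In 19 sites (86.4%) the Shox2 peak lay wholly inside the Pbx peak, against 87.5% elsewhere. The closest pair, 1.5 bp apart, was a Shox2 peak at chr2:74289773-74289986 in a Pbx peak of 1529 bp. That Pbx peak also met a second Shox2 peak, at chr2:74288939-74289446, whose centre was 686 bp off. Pbx peaks with 2 Shox2 peaks numbered 3 of 19 (15.8%), against 12.1% in the rest of the series. The others were a Pbx peak of 2604 bp at chr2:75046015-75048618, with Shox2 centres 278 and 808 bp from its own, and a Pbx peak of 2649 bp at chr2:75248428-75251076, with Shox2 centres 360 and 806 bp off.

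Few Shox2 limb peaks lay close to Pbx without touching it. From a Shox2 limb peak to the nearest Pbx limb centre the median distance was 6.34 kb in the window and 12.8 kb in the rest of the series. Pbx limb peaks were also 1.95-fold denser in the window, and the part of that density in the distance was not tested. A gap of at most 1 kb separated 3 of the 84 (3.57%) from Pbx, against 3.35% elsewhere.

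**Figure D4:**
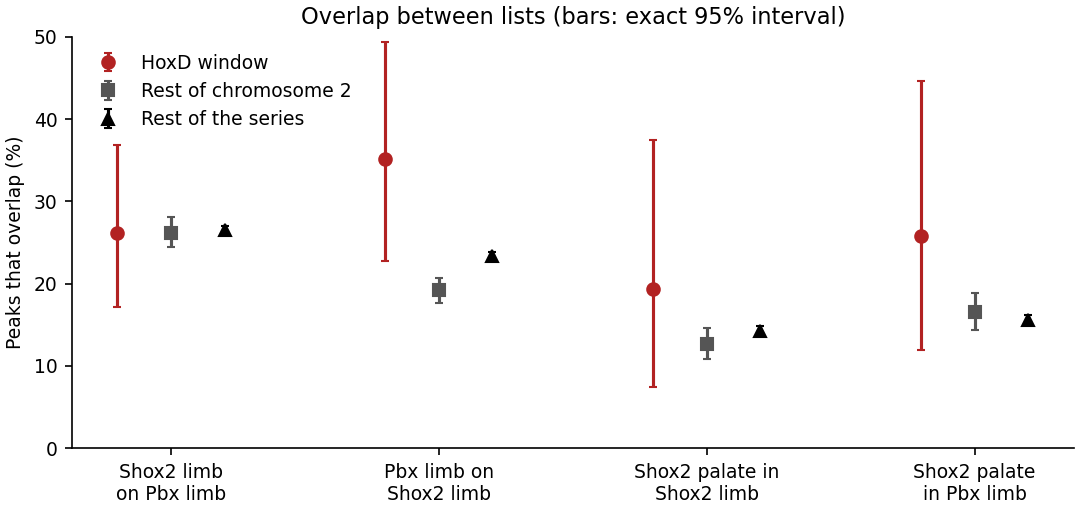
Percent of peaks that overlap another list by at least 1 bp, in the HoxD window, the rest of chromosome 2 and the rest of the series, with exact 95% intervals. The window's Shox2 limb share on Pbx is 26.2%, against 26.2% and 26.5%, and the intervals of the 3 other window shares plotted include the value of the rest of the series, though that of Pbx limb on Shox2 limb lies above the 19.2% of the rest of chromosome 2.

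Shox2 sites of limb and palate were shared at 6 places in the window. These 6 are 19.4% of the 31 palate peaks (interval 7.45 to 37.5%), beside 14.2% of the whole palate list, and 7.14% of the 84 limb peaks, beside 6.28% of the whole limb list. In the centromeric desert they were the palate positions 74187927, 74284972 and 74346528, and in the telomeric desert 74732518, 74867517 and 75102053. The palate position lay 0 to 246 bp from the centre of the limb peak. At 74284972 it was the very centre of a Shox2 limb peak of 171 bp, and at 74732518 it lay 246 bp from the centre of a peak of 652 bp, the third widest Shox2 limb peak of the window.

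A further 5 palate positions (16.1%, against 7.3% in the rest of the series) lay outside a Shox2 limb peak by a gap of at most 1 kb. A pair of them, 73967341 and 73968343, stood on either side of the same limb peak at chr2:73967633-73968003, with gaps of 291 and 339 bp. The gaps of the others were 722, 502 and 157 bp. Counting these, 11 of 31 palate peaks (35.5%) lay within 1 kb of a Shox2 limb peak, against 21.5% of the rest of the palate list. Shox2 limb peaks were also 3.03-fold denser in the window, and the part of that density in the nearness was not tested.

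Palate Shox2 peaks lay in Pbx limb peaks in 8 of 31 cases (25.8%, interval 11.9 to 44.6%), beside 15.6% of the whole palate list. The interval includes the background. From the side of Pbx, 8 of 54 peaks (14.8%, interval 6.62 to 27.1%) held a palate position, beside 6.62% of the whole Pbx list. The 6.61% of the rest of the series lies just below that interval. Of the 8 palate peaks, 7 were in no Shox2 limb peak. The nearest to a Pbx centre was 74838636, 6.5 bp from the centre of a Pbx peak of 1128 bp, and the farthest was 75263646, 1420 bp from the centre of a Pbx peak of 3980 bp. That peak, at chr2:75260236-75264215, was the widest Pbx peak of the window and overlapped no Shox2 limb peak. All 8 palate peaks or their Pbx partners stood in the lower part of their lists. When each list was cut to its upper 50% in file order, 0 of 18 palate peaks (interval 0 to 18.5%) lay in a Pbx peak. The whole palate list cut in the same way gave 12.2%, which that interval includes.

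Only 1 site of the window was in all 3 lists. It was the Shox2 limb peak at chr2:74187630-74187987, in the centromeric desert, and it is 1.19% of the window's Shox2 limb peaks (interval 0.0301 to 6.46%), beside 2.30% of the whole list. The peak was 358 bp wide and stood at line 10743. The palate position 74187927 lay 118 bp from its centre, and the Pbx peak around it was 878 bp wide with its centre 171 bp away. No site of the telomeric desert was in all 3 lists. Of the 84 Shox2 limb peaks, 21 were shared with Pbx alone, 5 with palate alone and 57 with neither. Of the 54 Pbx peaks, 18 met Shox2 limb alone, 7 met Shox2 palate alone, 1 met both and 28 met neither. Of the 31 palate peaks, 18 lay in neither limb list. These classes were not counted over the whole lists, so they are not read as particular to the window. Over the whole lists, 26.5% of Shox2 limb peaks met Pbx and 6.28% met palate, with peaks on both counted in each share. For Pbx peaks the shares were 23.4% on Shox2 limb and 6.62% on Shox2 palate. For palate peaks they were 14.2% in Shox2 limb and 15.6% in Pbx.

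Shox2 limb peaks of the window were a little wider than those of the list, with no higher place in the file. Their widths had a median of 316 bp (quartiles 213 and 406 bp), against 261 bp (198 and 374 bp) in the rest of the series, and their median place was 52.2% down the file. Peaks in the first 10% of the file numbered 6 (7.14%), against 10% of the rest. Those on Pbx had a median width of 363 bp and a median place of 33.6%, and those not on Pbx 304 bp and 56.7%. The same order held over the whole list, at 326 bp and 33.6% on Pbx and 245 bp and 55% off Pbx. The width that 2 peaks need to meet is part of the definition of an overlap.

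The Shox2 limb peaks that stood first in file order were spread over both deserts. Line 998 was a telomeric peak of 481 bp at chr2:75354006-75354486, with no Pbx. Line 1163 was a centromeric peak of 516 bp at chr2:74016061-74016576, on a Pbx peak of 590 bp. Line 1301 was a telomeric peak of 472 bp at chr2:75282934-75283405, with no Pbx. The widest Shox2 limb peaks were all telomeric, at 663, 662 and 652 bp, and of these the peak of 662 bp at chr2:75277573-75278234 was on Pbx.

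Pbx limb peaks had a median width of 938 bp in the window (quartiles 715 and 1276 bp), against 897 bp (698 and 1207 bp) elsewhere. Of the 54, 7 (13%) stood in the first 10% of the file, against 9.99% of the rest. The first in file order was line 822, a centromeric peak of 1533 bp at chr2:74038857-74040389, which held a Shox2 limb peak. Lines 1109 and 1312 came next, the telomeric peak of 2649 bp with 2 Shox2 limb peaks described above and a centromeric peak of 1232 bp at chr2:74218448-74219679 with 1. All 3 were thus on Shox2 limb peaks, beside 23.4% of the whole Pbx list. The share among the first lines of the whole Pbx file was not counted, so the 3 are not read as particular. The 2 widest Pbx peaks of the window, 3980 bp in the telomeric desert and 3692 bp in the cluster segment, overlapped no Shox2 limb peak. The next in width, of 2649 and 2604 bp, each met 2 Shox2 limb peaks, so the widest Pbx peaks were of both kinds. Widths of Pbx peaks on and off Shox2 limb were not compared over the window.

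**Figure D5:**
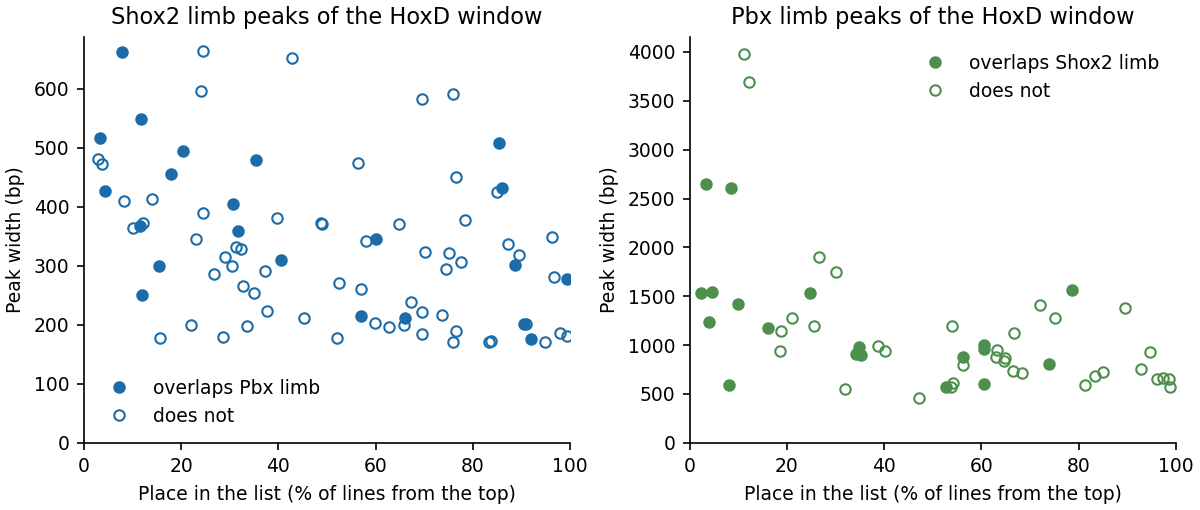
Width in bp of each Shox2 limb peak (left) and Pbx limb peak (right) of the HoxD window against its place in the deposited file, in percent of lines from the top. Filled points overlap the other factor's limb list and open points do not. The Pbx peaks of 3980 and 3692 bp are open, and those of 2649 and 2604 bp are filled.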

How the data were processed

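Illumina libraries were prepared after ChIP with a commercial high-sensitivity kit, per the labels' protocols. Bowtie, MACS2 and build mm9 are named per the submitters' processing notes. Their versions, the settings of the peak caller, the cutoff of each list and any subtraction of the nontagged ChIP remain not given in the sources used here. Lists deposited by the authors hold start and end positions only. They were used as deposited, with starts counted from 1 in the text.

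Peaks were placed by midpoint and overlaps required at least 1 bp. Palate peaks are 1 bp wide. Densities used the span from the first to the last peak of any list on each of chromosomes 1 to 19 and X, and tiles were laid end to end over the same span. Each group has 1 library, so no test was run. Named were the 9 Hoxd genes, 5 neighbouring genes on either side, all peaks of the cluster segment, sites in all 3 lists, the first 3 in file order and the widest 3 of each limb list, and the 3 fullest bins and longest empty stretch of each list. Pairs with small offsets or gaps and stretches without co-occupied sites were named after their values were seen. The same holds for a second palate stretch and further Shox2 limb stretches without peaks. The window, members and lists were chosen with earlier results of these data known. A planned count of the protein motif YPWM was not run. The overlap code was tested on simulated regions. Python 3.11.15, NumPy 2.4.6, pandas 2.3.3, SciPy 1.17.1 and matplotlib 3.10.9 were used.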

Additional observations from a re-analysis of the deposited data

How the results depend on the processing

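Of 75 values under alternatives, 52 stayed within their interval or within 1.5 times the count. With every peak set to 200 bp, Shox2 limb peaks on Pbx were 14.3% in the window, with 10.9% in the telomeric and 18.4% in the centromeric desert, and Pbx on Shox2 limb 22.2%. The whole lists gave 16.4% and 16.3% at that width. Cutting each list to its upper 50% in file order left 41 Shox2 limb peaks (17 centromeric, 24 telomeric) and 18 Shox2 palate peaks (5 telomeric). It left 24 Pbx peaks (8 centromeric, 1 in the cluster segment, 15 telomeric). Under this cut 0% of palate peaks (interval 0 to 18.5%) were in Pbx and 0 sites were in all 3 lists. In both settings the telomeric share of Shox2 limb peaks on Pbx was below the centromeric one (20.8% and 29.4% in the second). The shares as reported were 28.3% and 23.7%, and the cause was not tested. The other alternatives kept the reported order, at 25.9% and 17.9% with the widest 50% of each limb list. The widest 50% of each limb list left 55 Shox2 limb peaks (27 telomeric) and 31 Pbx peaks (8 centromeric, 1 in the cluster segment), and also 0 sites in all 3 lists. Both cuts lower counts by their construction, and the palate list, of a single width, was kept whole under the cut by width. Moving the cluster bounds outward by 20 kb put 1 Shox2 limb, 2 Shox2 palate and 4 Pbx peaks in the cluster segment, so its count of 0 Shox2 limb peaks depends on the telomeric bound. Taking the start of a peak in place of its midpoint moved no count by more than 1.5 times.

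No paired analysis was possible because the lists come from single libraries, which also leaves no replicate to omit. Absence from a list does not show that a site was unbound, since depth and cutoffs are not known. No list of regions from the nontagged ChIP was used.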

Other observations

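The order of lines in the files bears on how far a place in a list can be read as a rank. In the Shox2 limb file, 63.5% of neighbouring lines were on the same chromosome, and of these pairs 99.6% ascended in position. The palate file had 41.5% and 98.9%, and the Pbx limb file 16.2% and 96.2%. In the HoxD window, 4 pairs of neighbouring lines of the Shox2 limb file, 2 of the palate file and 1 of the Pbx file lay together, all in ascending order. Lines 23585 and 23586 of the Shox2 limb file, for example, were peaks of 582 and 221 bp at chr2:74834076-74834657 and chr2:75595186-75595406. Runs of lines are thus sorted by position, and within such a run the line number follows position. How many lines each run holds was not determined.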
